A study of Mus musculus with 23 samples.

Results

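The cytoplasmic ribosomal protein genes encode the proteins of the small (Rps) and large (Rpl) subunits of the ribosome. They were taken by symbol, as Rps or Rpl with a number and an optional a or x, together with the stalk genes Rplp0, Rplp1 and Rplp2 and the small subunit gene Rpsa. The rule found 76 of the 32285 genes in the count tables, 30 of the small and 46 of the large subunit. No expression value was used to choose them.

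The libraries came from mice of strain C57BL/6 by the labels (C57BL/6N for the edited founders in the study's methods), 2 months old, that were wild type (WT) or carried a Stat5b knock-in allele that replaces 1 tyrosine by phenylalanine (Y665F) or histidine (Y665H). The Y665F allele was made with CRISPR/Cas9 and a single-stranded oligonucleotide donor, and the Y665H allele with an adenine base editor. Cells from bone marrow (BM), lymph node (LN) and spleen were profiled by droplet single-cell RNA sequencing, which counts unique molecular identifiers (UMIs). LN held 2 WT, 3 heterozygous (het) Y665F and 2 homozygous (homo) Y665F libraries. BM held 2 libraries each of WT, Y665H and Y665F. Spleen held 1 library of CD45+ cells per genotype, each described by the study as combined mice. The labels do not give zygosity for the BM and spleen libraries, although the study describes homozygous mice in its marrow and spleen work. The labels name a 3′ kit and the study's methods a 5′ kit for the library preparation, so tissues were not tested against each other. Each mutation was studied to learn how it acts on immune cells, and the comparisons below ask whether the ribosomal protein genes moved with genotype, as a group or singly.

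Ribosomal proteins are needed in near-equal numbers in each ribosome, and their mRNAs are among the most abundant of growing lymphoid and marrow cells. Most of these mRNAs begin with a run of pyrimidines at the 5′ end (the TOP motif), through which mTOR signalling controls their translation as a group. Loss of 1 copy of several members causes Diamond-Blackfan anemia, in which the red cell lineage of the marrow is the main one to fail. Processed pseudogene copies of many members lie across the genome.

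UMIs were summed per library over marker gates, which are groups of barcodes picked by a few cell type genes, none of them a member. The gates used here were CD8 T, CD4 T, regulatory T (Treg), B and NK in LN and spleen, and stem, granulocyte-monocyte progenitor (GMP), erythroid and B lineage in BM. Markers that the gates did not use were higher inside than outside the gate in 6 of 6 BM libraries for Ms4a3 (GMP) and for Blvrb and Ank1 (erythroid), and in 7 of 7 LN libraries for Trac in the CD8 T gate and Cd74 in the B gate. In the CD4 T gate Trac and Cd2 were each higher in 6 of 7, but in the CD8 T gate Cd2 was higher in 1 of 7. The stem gate had more Meis1 and Cd34 than other barcodes in 6 of 6 libraries, but less Mllt3 in the 2 Y665H libraries. Kept UMIs per library ranged from 2372988 to 16089493 in LN, from 36644610 to 47020817 in spleen and from 16131568 to 55554584 in BM. LN het replicate 3 and homo replicate 1 were shallow, with 410 and 436 UMIs per kept barcode at the median against 874 to 3119 in the other LN libraries. At most 2.89% of the barcodes of a library were shared with another library of its tissue.

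Windows around the annotated transcription start, 20 bases before and 10 after it, were searched for runs of pyrimidines. A run anywhere in the window counted, so it can lie before the start and outside the mRNA, as that of Rpl31 does. The windows thus do not show which mRNAs have or lack the TOP motif. Of 56 members matched to a RefSeq promoter entry (build GRCm38.p6), 26 (46.4%) held an unbroken run of at least 8 C or T on the coding strand, against 3927 of 27025 genes (14.5%). Rpl34 held the longest run printed here, Rpl31, Rps9 and Rpl38 are members whose marrow levels are described below, and Rplp0 and Rps12 are such members with no run in the window. The run is in capitals, 5′ to 3′.
Rpl34, chr3:130730328-130730357, minus strand: ccgCCCCTTCCTTTTCCTCTTCCggggacg
Rpl31, chr1:39367831-39367860, plus strand: caCCTCTTCCTCCTCgcctccccgtgaccc
Rps9, chr7:3704021-3704050, plus strand: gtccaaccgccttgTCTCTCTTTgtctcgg
Rpl38, chr11:114668560-114668589, plus strand: ccggaagcggaagcctcgTTCTTTCCCCgt
Rplp0, chr5:115559447-115559476, plus strand: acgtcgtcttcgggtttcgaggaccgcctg
Rps12, chr10:23787200-23787229, minus strand: ttaaataccgtcatgcggccaccgccggcc
A run in these windows is a description of letters, and the windows hold only 1 annotated start, so no run says nothing of starts elsewhere in the gene.

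The share of UMIs on the 76 genes differed more between cell classes than between genotypes. In LN it was highest in the CD8 T gate and lower in CD4 T, Treg and B gates, in that order, in 7 of 7 libraries. In the CD8 T gate the share was 33.5% and 31.4% in WT, 34.2%, 33.9% and 32.6% for het and 31.3% and 34.8% for homo libraries. In the B gate it was 23.02% and 21.02% in WT, 20.5%, 21.6% and 21.1% for het and 19.6% and 21.5% for homo libraries. The CD8 T and B gates did not overlap, while the genotypes overlapped within each of them. In BM the erythroid gate was highest and the B lineage gate lowest in 6 of 6 libraries.

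No share passed the exact two-sided permutation test of an ordered trend over the 3 genotypes of a tissue, run on 7 shares with Benjamini-Hochberg adjustment. Each p given for a share is of that trend, and the differences between pairs of genotypes beside it were not tested. The smallest p the test allows is 0.00952 in LN (order WT, het, homo) and 0.0222 in BM (order Y665H, WT, Y665F). A single share at that p would have an adjusted p of 0.0667 in LN and 0.156 in BM, so no share could have passed alone. Over all kept LN barcodes the share was 27.7% and 27.1% in WT (mean 27.4% ± 0.389, SD), 30.5%, 30.1% and 29.1% in het (29.9% ± 0.696) and 28.8% and 31.1% for homo (29.97% ± 1.61). Both mutant groups lay above both WT libraries (trend: exact permutation p = 0.152, adjusted p = 0.622), homo by a mean of 2.59 percentage points, or 1.45 without homo replicate 2. Over the same libraries the B gate, the one with the lowest share, held 43.7% and 26.8% of kept barcodes in WT, 20.7%, 23.85% and 12.98% for het and 11.0% and 15.9% for homo. Its part in the whole-library share was not tested. Inside single gates homo minus WT was 0.593 points in CD8 T (trend: exact permutation p = 0.648, adjusted p = 0.756), 0.0600 in CD4 T (trend: exact permutation p = 0.876, adjusted p = 0.876) and -1.47 in B (trend: exact permutation p = 0.438, adjusted p = 0.756). The CD8 T and CD4 T differences changed sign when WT replicate 2 was left out (-0.426 and -1.19 points) and when homo replicate 2 was left out (-1.13 and -1.50), and grew without WT replicate 1 (1.61 and 1.31) and without homo replicate 1 (2.32 and 1.62). The B difference was -0.473 without WT replicate 1, -0.532 without homo replicate 1, -2.47 without WT replicate 2 and -2.41 without homo replicate 2.

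In BM the share over all kept barcodes was 26.9% and 29.0% in WT, 28.6% and 29.8% in Y665H and 31.4% and 29.7% in Y665F. The Y665F mean was 2.65 points above WT, or 1.60 without WT replicate 1. The Y665H mean was also above WT, against the order tested (trend: exact permutation p = 0.578, adjusted p = 0.756), and the libraries of Y665H and Y665F overlapped. In the erythroid gate the share was 29.9% and 30.8% in WT, 29.8% and 31.4% in Y665H and 35.5% and 32.2% in Y665F. Both Y665F libraries were above the other 4 there (trend: exact permutation p = 0.178, adjusted p = 0.622). Their mean was 3.49 points over WT, and 1.80 without Y665F replicate 1. In the GMP gate it was 22.5% and 28.4% in WT, 26.9% and 28.9% in Y665H and 30.7% and 29.2% in Y665F. The 2 WT libraries differed from each other there by more than the 4.49 points between Y665F and WT (trend: exact permutation p = 0.333, adjusted p = 0.756). This difference was 1.53 points without WT replicate 1 and 7.46 without WT replicate 2. In both remaining gates, each with under 50 cells in its smallest library, WT replicate 1 was again lowest, at 23.4% in the stem gate and 17.7% in the B lineage gate.

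**Figure D1:**
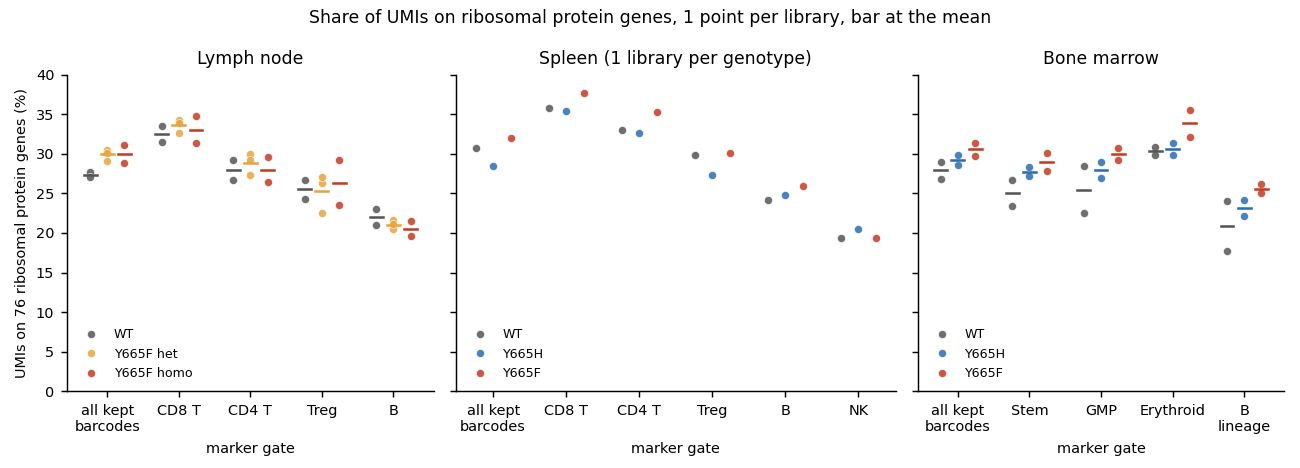
Share of UMIs on the 76 ribosomal protein genes (percent, y axis) in each marker gate (x axis) of lymph node, spleen and bone marrow, with 1 point per library and a bar at the mean of each genotype where it has replicates. The CD8 T gate sits near 31 to 35% and the B gate near 20 to 23% in lymph node whatever the genotype, and in bone marrow the 2 Y665F libraries are the highest of the erythroid gate.

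The spleen had 1 library per genotype, so its values were not tested. Over all kept barcodes the share was 30.8% in WT (exact 95% Clopper-Pearson interval 30.75 to 30.78), 28.4% in Y665H (28.42 to 28.45) and 32.02% in Y665F (32.01 to 32.04). These intervals, and all others given here, cover counting error only and not differences between mice. The CD8 T gate was at 35.8% in WT, 35.4% in Y665H and 37.6% in Y665F, and the B gate at 24.2%, 24.8% and 26.0%. The NK gate was lowest in each library, at 19.4%, 20.5% and 19.4%. CD8 T barcodes, the class with the highest share, made up 23.2% of kept barcodes in WT, 14.6% in Y665H and 37.6% in Y665F, and the part of this mix in the whole-library order was not tested.

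Single members were then compared by gate with edgeR's quasi-likelihood test over all genes, in which all 76 members passed the filter on low counts in every gate. Members with an adjusted p below 0.05 (Benjamini-Hochberg, over all genes of the gate) are named as called. The shares of all genes called use the same threshold. No share of all genes is given beside the members counted at an unadjusted p. Levels are given as CPM, the UMIs of a gene scaled to a fixed total per gate and library. Fold changes are on the log2 scale and carry edgeR's TMM scaling, which the CPM do not, so a fold can differ from the ratio of the printed CPM. Against the ratio of mean CPM, the scaling moved the median of all genes by 0.31 in GMP Y665H against WT, by -0.27 in GMP Y665F against Y665H, by -0.22 and -0.31 in erythroid Y665F against WT and against Y665H, and by 0.13 and 0.15 in the stem and B lineage gates of Y665F against WT. In the remaining comparisons the shift stayed under 0.1. The test had no term for the replicate number. In each BM genotype replicate 1 had Xist at 244 to 895 CPM and replicate 2 at most 0.586, so this split lies inside each group. LN and spleen libraries had at most 0.0988 CPM. The study's methods give male mice as the source of its tissues, which the Xist level of the BM replicate 1 libraries does not match.

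In lymph node edgeR called no member with all libraries in the test. In the CD8 T gate edgeR called 0 of 76 for homo against WT, where 2.26% of all 9574 genes were called, with 13 members at an unadjusted p under 0.05 and 1 called by DESeq2 (Rpl13), beside 0.648% of all genes. In het against WT it called 0, against 1.04% of all genes, with 10 at an unadjusted p under 0.05 and 0 by DESeq2. In homo against het it called 0, against 0.0313% of all genes, with 0 at an unadjusted p under 0.05 and 0 by DESeq2. The CD4 T gate gave 0 in the same order of comparisons against backgrounds of 0.612%, 0.267% and 0.0157%, with 7, 4 and 0 members at an unadjusted p under 0.05 and 0 by DESeq2 in each. The B gate also gave 0, against 0%, 0.121% and 0%, with 6, 5 and 0 members at an unadjusted p under 0.05 and 0 by DESeq2 in each. Leaving out het replicate 3 let edgeR call Rpl13 in CD8 T homo against WT, beside 3.02% of all genes, and leaving out WT replicate 2 let it call Rpl38 in CD4 T homo against WT, beside 0.307%.

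The Treg gate, added after the cell counts were seen and with as few as 35 cells in a library, gave 0 called members in homo against WT, het against WT and homo against het, where 0.0640%, 0.128% and 0% of all 3125 genes were called. By edgeR 0 members had an unadjusted p under 0.05 in each of these, and DESeq2 called 0. Without both shallow libraries, which leaves 1 homo library whose spread is taken from the other groups, edgeR called 6 members higher in homo than in WT, where 0.656% of 5639 genes were called. Rpl13, a large subunit member among them, had a log2 fold change of 0.54 there (adjusted p = 0.0359 by edgeR). It was at 7804 and 7575 CPM in WT Treg, 7913, 8744 and 10403 for het and 9975 and 10479 for homo, so all 5 Y665F libraries were above both WT libraries with the shallow ones included.

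Rpl13, the large subunit member that DESeq2 called and which was picked out after its values were seen, was at 10259 and 10133 CPM in WT, 11390, 11863 and 13761 for het and 14260 and 13468 for homo CD8 T gates. All 5 Y665F libraries were above both WT libraries. Rplp0, the base of the stalk that recruits translation factors, was at 5914 and 7100 CPM in WT, 7655, 7672 and 8785 for het and 8842 and 7998 for homo libraries. Its 5 Y665F libraries were also above both WT libraries, and homo lay 0.40 above WT on the log2 scale (SE 0.145, adjusted p = 0.164 by edgeR). Rpsa, which is also known as the laminin receptor, was at 7473 and 8637 CPM in WT and at 8839 to 10522 in the 5 Y665F libraries (0.31, SE 0.145, adjusted p = 0.313).

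The shortest members pointed the other way in these T cells. Of 11 members with short coding sequences, 0 of 11 had a log2 fold change above 0 in the CD8 T gate of homo against WT, beside 38 of 76 members. Their median was -0.37, against -0.01 over all genes tested, and none was called. Rps27, a zinc-binding protein of the small subunit, was at 3344 and 2300 CPM in WT, 2633, 2367 and 1458 for het and 1204 and 2223 for homo libraries. Rps29, another small zinc-binding member, was at 3700 and 2330 in WT, 2826, 2356 and 1804 for het and 1462 and 2558 for homo libraries. For both genes the lowest values were those of the 2 shallow libraries. Without these, het and homo libraries overlapped WT for Rps29, while for Rps27 homo replicate 2 lay just under the lower WT library. The WT libraries differed from each other in the same direction, replicate 2 being the lower for both genes. Rpl38, which is known for a role in the translation of Hox mRNAs, was at 2463 and 1629 in WT, 1931, 1624 and 1252 for het and 1150 and 1807 for homo. It too was lowest in the 2 shallow libraries and lower in WT replicate 2 than in WT replicate 1.

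Bone marrow held single members that left the rest. In the erythroid gate 1 member was called higher and 2 lower in Y665F against WT, out of 76. This is a smaller share than the 24.6% of all 10215 genes called in that comparison, but with a per-library term that removes the trend with transcript length edgeR called 19 members and 15.0% of all genes. DESeq2 called 8 members and 17.1% of all genes, and without Y665F replicate 1 edgeR called 15 members and 28.0% of all genes. The median member had -0.04, and all genes 0.00, with 33 of 76 members above 0. By the ratio of mean CPM, with no further scaling, the medians were 0.15 and 0.22, and 52 members were above 0. Against Y665H, which shares the Y665F libraries with the comparison just given, 2 members were called higher and 4 lower, where 29.7% of all genes were called. There DESeq2 called 11 members and 20.3% of all genes, and edgeR with the length term 28 members and 18.6%. Without Y665F replicate 1 edgeR called 20 members and 30.8% of all genes, and without Y665H replicate 2 it called 2 members and 21.2%. In Y665H against WT edgeR called 0 members and 0% of all genes, with 0 members at an unadjusted p under 0.05 and 0 called by DESeq2.

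Rps9, which belongs to the small subunit and helps to hold the decoding site accurate, was at 1916 and 1276 CPM in the WT erythroid gate, 1288 and 1107 in Y665H and 3270 and 4073 in Y665F. The 2 Y665F libraries were above the other 4. On the log2 scale Y665F was 1.001 above WT (SE 0.277, adjusted p = 0.0110 by edgeR) and 1.31 against Y665H (SE 0.279, adjusted p = 0.00163). Leaving out WT replicate 2 ended the call against WT (adjusted p = 0.129), while all 15 alternatives kept the direction. The gene lies at chr7:3703993-3706897 on the plus strand, and 21.4% of the 31-base words of its longest coding transcript occur in 1 other gene, Gm5905.

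Rps12, a small subunit member, was at 3519 and 2582 CPM in WT, 2666 and 2753 in Y665H and 5411 and 5834 in Y665F. These Y665F libraries too were above the other 4, by 0.75 over Y665H (SE 0.277, adjusted p = 0.0427) and by 0.69 over WT (SE 0.277, adjusted p = 0.0696, not called). The call against Y665H held in 8 of 15 alternatives and was lost without any single library other than Y665F replicate 2. Copies of Rps12 are frequent, with 84.1% of its words found in 28 other genes, so reads could be shared with copies. It lies at chr10:23785183-23787275 on the minus strand.

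Rpl29, a large subunit member that is not essential in mice, went down. It was at 3632 and 3565 CPM in WT, 3611 and 3130 in Y665H and 2104 and 1103 in Y665F. The 2 Y665F libraries were below the other 4, replicate 2 the lower of them. The log2 fold change was -1.33 against WT (SE 0.322, adjusted p = 0.00502) and -1.33 against Y665H (SE 0.322, adjusted p = 0.00415), and both calls held in 15 of 15 alternatives, with the fold against WT from -2.08 to -0.86. The gene lies at chr9:106429454-106431568 on the plus strand and shares 49.1% of its words with 125 other genes.

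The stalk genes did not move together. Rplp0 was at 4503 and 3091 CPM in WT, 3186 and 2451 in Y665H and 2712 and 1522 in Y665F, with a fold change of -0.995 against WT (SE 0.318, adjusted p = 0.0249) and -0.67 against Y665H (SE 0.317, adjusted p = 0.108). Its Y665F and Y665H libraries overlapped. The call against WT held in 12 of 15 alternatives, with folds from -1.68 to -0.48, and was lost without WT replicate 1, without Y665F replicate 2 (adjusted p = 0.216 by edgeR) and with a per-library term for transcript length. Rplp1, which with Rplp2 forms the mobile arms of the stalk, was at 3506 and 2670 CPM in WT, 2741 and 2879 in Y665H and 4867 and 5534 in Y665F. Its fold change against WT was 0.55 (SE 0.275, adjusted p = 0.142, not called). Rplp2 was at 4904 and 6104 CPM in WT, 5782 and 7125 in Y665H and 6501 and 6470 in Y665F, with a fold change of 0.02. In the same 2 Y665F libraries Rplp1 was thus above the other 4 and Rplp0 below both WT libraries.

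Of the remaining called members, Rpl31 was at 2076 and 2530 CPM in WT, 2422 and 2898 in Y665H and 1813 and 1485 in Y665F. The Y665F libraries were below the other 4, with -0.98 against Y665H (SE 0.293, adjusted p = 0.0149) and -0.68 against WT (adjusted p = 0.0863). Rpl38 was at 3199 and 4130 CPM in WT, 4326 and 5777 in Y665H and 3712 and 3073 in Y665F, and Rps29 at 2025 and 1973, 2310 and 2911, and 1962 and 1825 in the same order. Both were called lower in Y665F than in Y665H, by -0.87 (SE 0.302, adjusted p = 0.0322) and -0.76 (SE 0.282, adjusted p = 0.0421). Both Y665H libraries were above all WT and Y665F libraries for Rpl38 and Rps29, and Y665F overlapped WT for Rpl38 and lay under it for Rps29. The calls of Rpl31, Rpl38 and Rps29 held in 11, 12 and 9 of 15 alternatives, and all were lost without Y665F replicate 2 and without Y665H replicate 2.

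A list of 11 Diamond-Blackfan genes, among them Rps19, Rpl5 and Rpl11, was counted in the erythroid gate, the lineage in which that disease shows. Rps29 and Rpl31, called above, have also been linked to the disease but are not on that list. By edgeR 0 of the 11 were called in Y665F against WT, Y665H against WT and Y665F against Y665H, beside 24.6%, 0% and 29.7% of all genes. At an unadjusted p under 0.05 there were 0 against WT in both mutants and 1 (Rpl5) in Y665F against Y665H. In the same order DESeq2 called 0, 0 and 1 (Rps19), beside 17.1%, 0% and 20.3% of all genes. With the length term edgeR called 3 in Y665F against WT, beside 15.0% of all genes, and 4 against Y665H, beside 18.6%. Without Y665F replicate 1 it called Rpl5 in both, beside 28.0% and 30.8%. In Y665F against WT 4 of 11 had a fold change above 0, with a median of -0.05, and 9 of 11 by the ratio of mean CPM, with a median of 0.16. Rps19, the gene most often mutated in that disease, was at 2434 and 2052 CPM in WT, 2009 and 2011 in Y665H and 3432 and 3720 in Y665F. Its Y665F libraries were above the other 4, with 0.47 against WT (SE 0.271, adjusted p = 0.204). Rpl5 and Rpl11, which bind the p53 regulator Mdm2 with the 5S rRNA, had -0.51 (SE 0.278, adjusted p = 0.181) and -0.20 (SE 0.283, adjusted p = 0.643). Among other members named here, Rpsa was at 4967 and 4064 CPM in WT, 4049 and 3385 in Y665H and 3609 and 2547 in Y665F (-0.73 against WT, SE 0.293, adjusted p = 0.0698). Rps4x, the X-linked small subunit member, had -0.35 (adjusted p = 0.391), Rpl22, of which loss impairs T cell development, had 0.01 (adjusted p = 0.989), and Rps6, the target of S6 kinase, had -0.17 (adjusted p = 0.691).

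Rps9, Rps12 and Rpl29 were followed in the other marrow gates. In the GMP gate edgeR called 0 members in Y665F against WT, where 5.12% of all 9935 genes were called, with 3 members at an unadjusted p under 0.05, and DESeq2 called 2 (Rps9 and Rps12) and 4.36% of all genes. Against Y665H it called 0, against 13.3% of all genes, with 3 at an unadjusted p under 0.05, and DESeq2 called 3 (Rps9, Rps12 and Rpl29) and 11.0% of all genes. With WT replicate 1 left out edgeR called 3 members against WT (Rps9, Rps12 and Rpl29), beside 22.8% of all genes, and 7 against Y665H, beside 31.7%. With WT replicate 2 left out it called 2 against WT (Rps9 and Rps12), beside 3.15% of all genes, and 7 against Y665H, beside 32.8%. The lone WT library is there assumed to vary like the other groups. With the length term, and with the replicate number as a block, edgeR called more members in both comparisons, as counted in the closing section. Rps9 was at 1518 and 1261 CPM in WT, 1252 and 1073 in Y665H and 3196 and 4005 in Y665F GMP (1.37 against WT, SE 0.434, adjusted p = 0.0746). Rps12 was at 1797 and 1608, 1662 and 1801, and 3620 and 4706 in the same order (1.28, SE 0.446, adjusted p = 0.0992). Rpl29 was at 2558 and 3192, 3177 and 2722, and 1774 and 1040 (-1.08, SE 0.480, adjusted p = 0.186). For each of the 3 genes the Y665F libraries did not overlap the other 4.

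The stem and B lineage gates were added after the cell counts were seen and have as few as 39 and 42 cells in a library. In the stem gate Rps9 was called higher in Y665F than in WT (1.31, adjusted p = 0.0252, with 0.674% of all genes called), and Rps9 (1.49, adjusted p = 0.00996) and Rps12 (1.30, adjusted p = 0.0385) were called higher than in Y665H (0.987% of all genes). In the B lineage gate Rps9 and Rps12 were called higher in Y665F than in WT (1.34 and 1.36, with 3.77% of all genes called) and than in Y665H (1.62 and 1.34, with 3.30% of all genes called). Over the 4 marrow gates, both Y665F libraries were above all WT and Y665H libraries for Rps9, Rps12 and Rplp1 in 4 of 4, and below them for Rpl29 in 4 of 4. Rpl31 and Rplp0 were below in 1 of 4 gates each, and Rpsa in 2 of 4. The gates share their libraries, so they do not repeat the comparison on other mice.

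**Figure D2:**
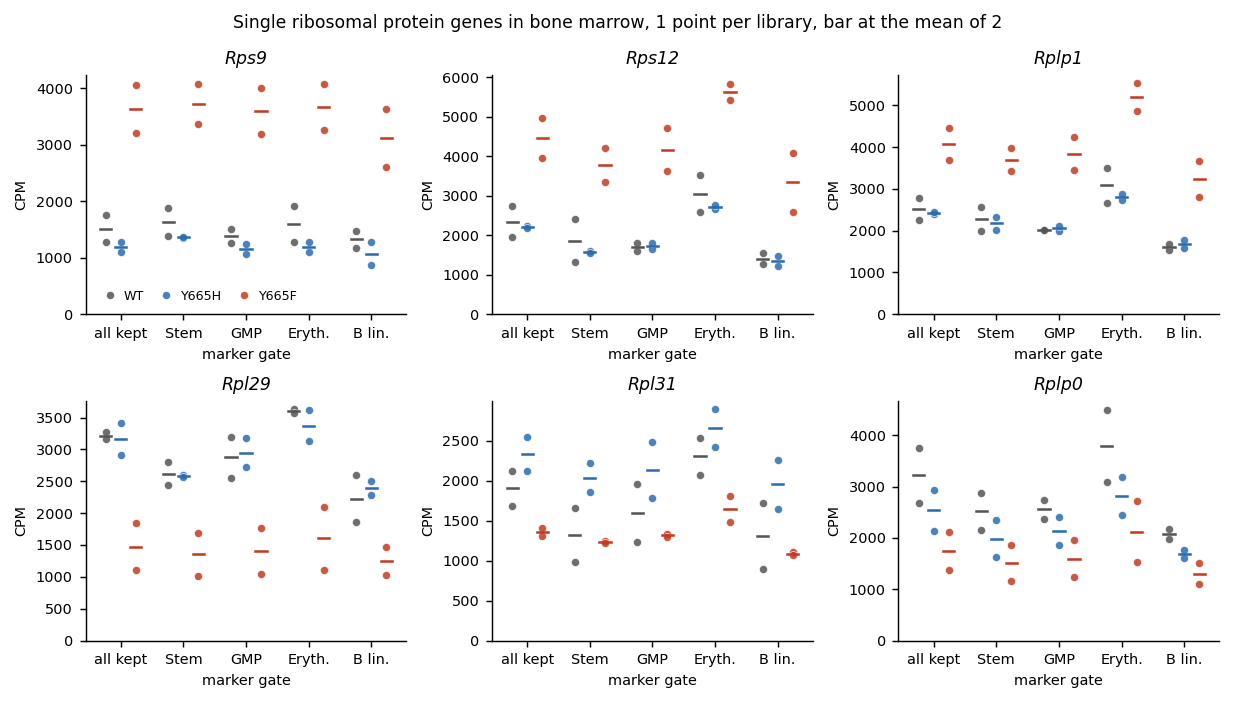
Level of 6 ribosomal protein genes (CPM, y axis from 0) over all kept barcodes and in 4 marker gates of bone marrow (x axis), with 1 point per library and a bar at the mean of the 2 libraries of a genotype. Rps9, Rps12 and Rplp1 are higher and Rpl29 lower in both Y665F libraries than in the other 4 in each gate, while Rpl31 and Rplp0 overlap in 3 of the 4 gates.

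A ratio of members within a library does not depend on scaling. Over all kept marrow barcodes there were 0.556 and 0.390 Rps9 UMIs per Rpl29 UMI in WT, 0.377 and 0.378 in Y665H and 1.74 and 3.69 in Y665F. The 2 Y665F libraries differed from each other by more than the 4 others did. In LN the ratio was 1.54 to 1.71 in all 7 libraries and in spleen 3.09 to 3.24 in all 3, with WT at 1.54 and 1.58 in LN and 3.09 in spleen. The Y665F marrow libraries were thus nearer to the other tissues than to WT marrow in this ratio. The labels name the same kit for every library, and a difference of kit between the marrow genotypes was not tested. Rplp1 UMIs per Rplp0 UMI were 0.740 and 0.842 in WT marrow, 0.822 and 1.15 in Y665H and 1.74 and 3.25 in Y665F, against 0.654 to 1.42 in LN and 1.74 to 2.06 in spleen.

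Other features of these libraries moved with the Y665F genotype in marrow. The erythroid gate held 12.7% and 13.2% of kept barcodes in WT, 17.0% and 13.2% in Y665H and 3.71% and 1.89% in Y665F. Of 7 neutrophil markers, between 0 and 2 were at 0 in an erythroid gate, and their summed level there was 26.7 and 6.61 CPM in WT, 15.4 and 91.2 in Y665H and 155 and 121 in Y665F. In the GMP gate it was 23.8 to 102 CPM in the 4 WT and Y665H libraries and 381 and 346 in Y665F, in the B lineage gate 18.9 to 272 against 3442 and 1915, and in the stem gate 9.19 to 249.9 against 219 and 279. Y665F replicate 2 had no barcode under 500 genes, against 8.89% to 13.9% of barcodes in the other 5 BM libraries. The part of each in the changes of single members was not tested, and a library's preparation cannot be told apart from its genotype where both libraries of a genotype differ from the rest. In the summed counts of a gate, a change in its mix of cells and a change of RNA within its cells cannot be told apart.

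In Y665H marrow most members were above WT by the fitted fold, but this differed with the scaling, with a length term and between the 2 WT libraries. In the GMP gate 75 of 76 members were above 0 against WT by the TMM-scaled fold (median 0.32, all genes -0.01). By the ratio of mean CPM 55 of 76 were above 0 (median 0.10, all genes -0.32), and with the length term in the fit 31 of 76 (median -0.04, all genes -0.04). Without WT replicate 1 the fitted fold was above 0 for 41 of 76. With all libraries edgeR called 0 members and 0% of all genes, with 0 members at an unadjusted p under 0.05 and 0 called by DESeq2. Rplp2 in the GMP gate was at 2931 and 4689 CPM in WT and 4394 and 5828 in Y665H, and Rpl38 at 2455 and 3687 and at 4071 and 5394. For Rplp2 the genotypes overlapped, while for Rpl38 both Y665H libraries were above both WT libraries, and for both genes WT replicate 1 was the lowest of the 4. On the CPM scale both Y665H libraries were above WT replicate 1 for 53 of 76 members and below it for 12, but above WT replicate 2 for 14 and below it for 30. Without WT replicate 2, edgeR called 11 members and 8.95% of all genes, with WT replicate 1 alone standing for WT. The 11 short members, a list fixed with earlier results of these data known, were all above 0 in Y665H against WT. Their median was 0.57 in the GMP gate and 0.27 in the erythroid gate, where 75 of 76 and 49 of 76 members were above 0. By the ratio of mean CPM 11 of 11 were above 0 in the GMP gate (median 0.35) and 10 of 11 in the erythroid gate (median 0.17), beside 55 and 34 of 76 members.

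The change of a member was set against the length of its longest annotated transcript, which runs from 383 to 5179 bases over the 76 genes (median 925.5). Rank correlations across members are given as a description, since members are not independent and share a library's depth and base composition. In BM they were -0.43 in GMP and -0.35 in erythroid cells for Y665H against WT, -0.14 and -0.10 for Y665F against WT, and 0.03 and 0.04 for Y665F against Y665H (76 members each). Short members were thus relatively higher in Y665H than in WT. Between the 2 libraries of 1 genotype in these gates, replicate 2 against replicate 1, the same correlation ran from -0.40 to -0.09 over 6 pairs. The Y665H pairs gave -0.40 (GMP) and -0.39 (erythroid), and the WT and Y665F pairs -0.24 to -0.09. A trend near the size of Y665H against WT thus also occurred between replicates, but only in the Y665H pairs. In the LN CD8 T, CD4 T and B gates it ran from 0.15 to 0.47 over 9 genotype comparisons and from -0.47 to 0.52 over 15 pairs of replicates.

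**Figure D3:**
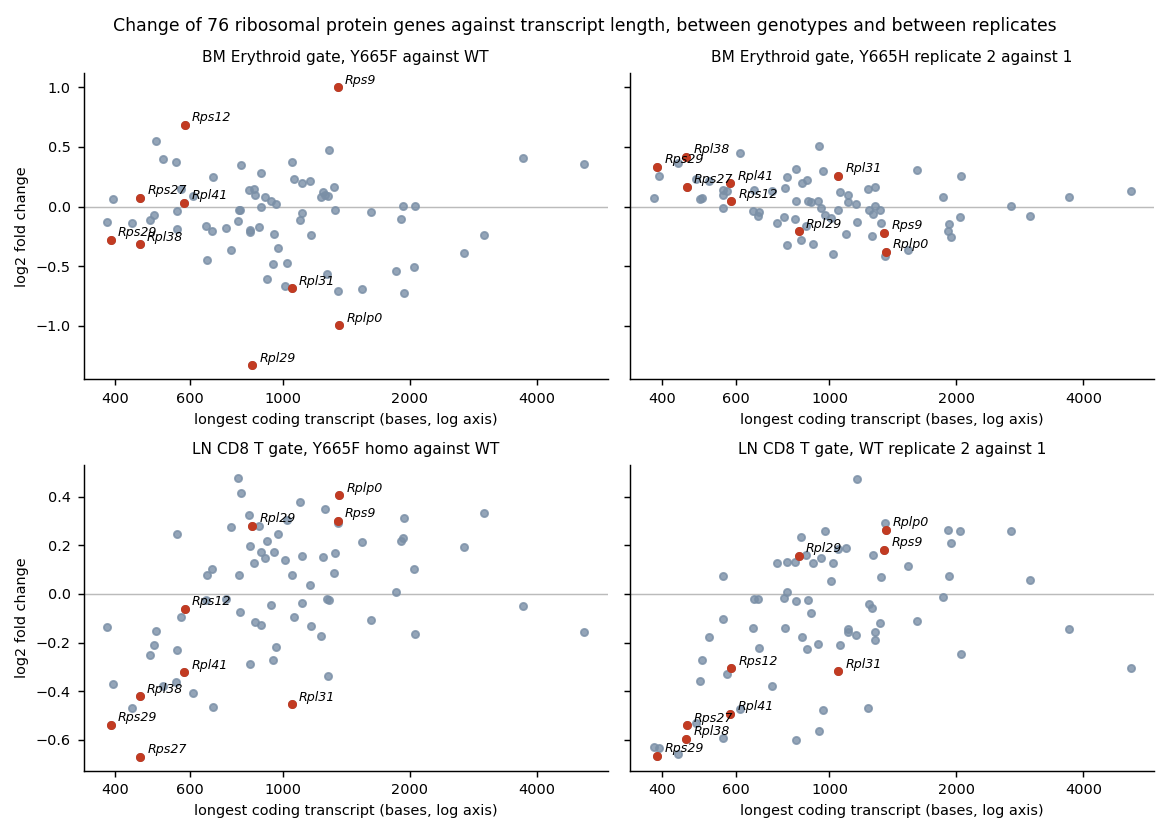
Log2 fold change of each of the 76 ribosomal protein genes (y axis) against the length of its longest coding transcript (bases, log x axis), between genotypes on the left and between 2 replicate libraries on the right, in the erythroid gate of bone marrow and the CD8 T gate of lymph node, with named members in red. In lymph node the named short members Rps27, Rps29, Rpl38 and Rpl41 lie below 0 both between genotypes and between WT replicates, and in marrow Rps9, Rpl29 and Rplp0 lie apart from the other members in Y665F against WT.

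Members were set beside other genes of their length in Y665F erythroid cells. Among transcripts from 900 to under 1500 bases, the 28 members had a median fold change of -0.00 and the 1110 other genes -0.58 against WT. Over 6000 bases other genes had 0.59, and no member is that long. By their longest annotated transcripts, Rps9, which rose, has 1347 bases and Rplp0, which fell, has 1358. With the length term the call of Rps9 against WT held and that of Rplp0 was lost. The part of length in the change of either gene was not tested.

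Genes of related machinery were counted beside the members, from lists fixed with earlier results of these data known. Of 78 mitochondrial ribosomal protein genes, which make the separate ribosome of mitochondria, 36 (46.2%) fell and none rose in Y665F erythroid cells against WT (median -0.66), where 24.6% of all genes were called and other genes of 900 to under 1500 bases had a median of -0.58. Against Y665H 53 (67.9%) fell (median -0.79), where 29.7% of all genes were called. Both of these shares of all genes count genes called in either direction. Against Y665H the scaling moved the median of all genes by -0.31, and no median of other genes by length is given. In the GMP gate 1 (1.28%) fell against WT and 16 (20.5%) against Y665H, beside 5.12% and 13.3% of all genes. In Y665H against WT none was called in either gate. Of 16 translation factors and other genes with TOP mRNAs, 3 (18.8%) fell and none rose in erythroid Y665F against WT, a share under the 24.6% of all genes. They were Hnrnpa1, an RNA-binding protein (-1.23, adjusted p = 0.00297), and Eif3h (-1.14, adjusted p = 0.00956) and Eif3e (-0.85, adjusted p = 0.0210), subunits of initiation factor eIF3. Eef1a1, the elongation factor that brings tRNA to the ribosome, had -0.38 (adjusted p = 0.353).

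Of 28 ribosome biogenesis genes 5 (17.9%) fell in that comparison and none rose, again under the 24.6% of all genes. Gar1 and Nhp2, of the particle that makes pseudouridine in rRNA, had -0.93 (adjusted p = 0.0155) and -0.84 (adjusted p = 0.0348). Pes1, Rrp9 and Rrs1, needed to process pre-rRNA, had -0.76, -0.76 and -0.79. The nucleolar proteins Npm1 and Ncl had -0.21 (adjusted p = 0.597) and 0.05 (adjusted p = 0.902). Of 10 genes related to the family but outside the rule, Rpl7l1 fell (-1.06, adjusted p = 0.00498), Rpl39l was called but was at 0 to 2.19 CPM in every library, so no fold is given, and Fau and Rps3a1 had -0.04 and -0.28 (adjusted p = 0.934 and 0.490). In LN CD8 T cells of homo against WT, where 2.26% of all 9574 genes were called, Myc was the only gene of these lists called (0.60, SE 0.141, adjusted p = 0.0140 by edgeR). Myc is a transcription factor that drives ribosome production. It was at 115 and 147 CPM in WT, 205, 182 and 157 for het and 207 and 189 for homo, all 5 Y665F libraries above WT.

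**Figure D4:**
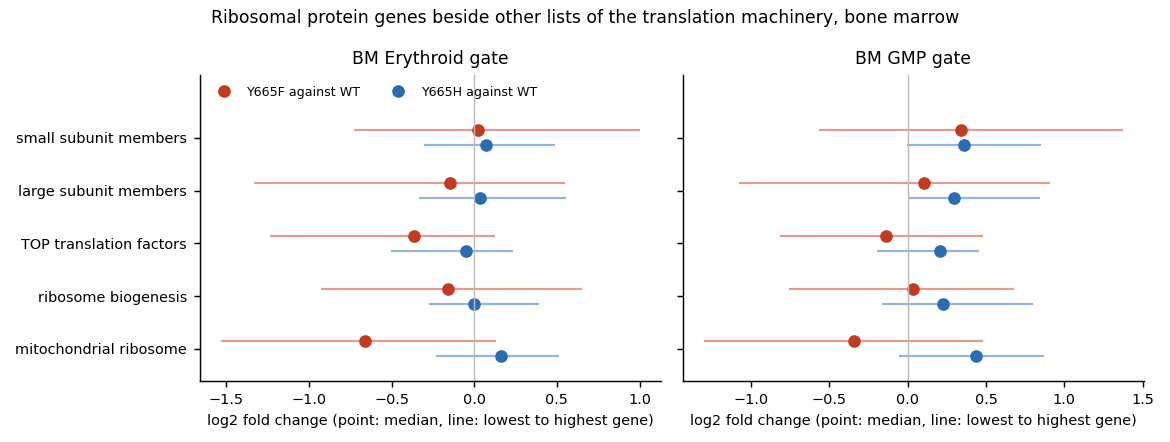
Median log2 fold change (points) and lowest to highest gene (lines) of the small and large subunit members and of 3 related lists (y axis) in the erythroid and GMP gates of bone marrow, for Y665F (red) and Y665H (blue) against WT. In the erythroid gate the members have medians of 0.02 (small) and -0.14 (large) in Y665F while the mitochondrial ribosome is at -0.66, and in the GMP gate all 5 medians of Y665H are above 0. These folds carry the TMM scaling, which moved the median of all genes by -0.22 in erythroid Y665F and by 0.31 in GMP Y665H. By the ratio of mean CPM the median of the 76 members was 0.15 and 0.10 in these comparisons, and no such value is given for the related lists.

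In spleen, with 1 library per genotype and no test, no member left the rest. All 76 had at least 2549 UMIs over the 3 libraries of each gate, and the log2 ratio of CPM to WT ran from -0.35 to 0.37 over 5 gates and both mutants. Medians ran from -0.13 (Treg, Y665H) to 0.12 (B, Y665F), and no member was 0.5 or more from its gate's median. Rps9 in CD8 T cells was at 5358 CPM in WT, 5573 in Y665H and 5933 in Y665F, and Rpl29 at 1694, 1705 and 1888. Rps9 and Rpl29, the most raised and most lowered members of the erythroid gate in Y665F against WT, thus had ratios of 0.15 and 0.16 for Y665F in splenic CD8 T cells. Rpl31 had the lowest ratio of this gate in Y665F, at 1833 CPM in WT and 1563 in Y665F (-0.23), and the highest in Y665H, at 2027 (0.15).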

How the data were processed

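The authors aligned reads with Cell Ranger to mm10 and used Seurat. The submitters' processing notes give Cell Ranger 5.0 and Seurat 4.0, the file headers Cell Ranger 5.0.0 (LN) or 6.0.0 (BM, spleen), and the study's methods name later versions of both than the notes. The authors deposited filtered matrices of UMI counts per gene and barcode for 16 libraries (7 LN, 3 spleen, 6 BM). The 7 T-cell receptor libraries were not used here. Barcodes were kept from 200 detected genes up, if no more than 10% of their UMIs were mitochondrial, and a barcode inside more than 1 gate was dropped. No doublet caller was run, and leaving out the top 5% of barcodes by UMIs was the alternative. Counts were summed per library and gate, and gates with 50 or more cells in every library were tested (30 for those added later).

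Groups came from the labels. All genotypes of a tissue entered 1 edgeR 4.0.16 model per gate (R 4.3.3, TMM, filterByExpr, robust glmQLFit, glmQLFTest, no covariate), with DESeq2 1.42.0 as the alternative. Shares used an exact two-sided permutation of the Jonckheere-Terpstra statistic (numpy 2.4.6). Both were tested on simulated data. Alternatives were other scalings (upper quartile, TMM without members), a length term, a replicate block, other barcode filters and leaving out each library, where a lone remaining library is assumed to vary like the other groups. Libraries are the replicates, and where nothing says that they came from separate mice the p-values measure only the spread between libraries. Transcript lengths, positions and shared 31-base words came from GENCODE's GRCm38 annotation, matched by gene ID for 32158 genes (99.6%), and start windows from RefSeq.

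A member was named where its fold change differed by 0.5 or more (log2) from the median member with an adjusted p under 0.05, or in spleen with 100 or more UMIs and no test. The stalk, Diamond-Blackfan and short members, and Rpsa, Rps4x, Rpl22 and Rps6, were named always. The members and lists were chosen with earlier results of these data known.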

Additional observations from a re-analysis of the deposited data

Results flagged for a closer look

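Rpl29 had a log2 fold change of -1.33 in the erythroid gate of bone marrow in Y665F against WT, and of 0.28 (homo) and 0.26 (het) in the CD8 T gate of lymph node. It stood out in these gates because both Y665F marrow libraries were below both WT libraries, with the reverse in lymph node. There all 5 Y665F libraries were above both WT libraries. In the B and Treg gates of lymph node the Y665F libraries overlapped WT for Rpl29.

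Rplp0 stood out in the same way, with -0.995 in the erythroid gate and 0.40 (homo) and 0.35 (het) in lymph node CD8 T cells. Its Y665F libraries overlapped WT in the lymph node B gate and were above both WT libraries in the Treg gate. The difference between the tissues was not tested for either gene. Tissue and cell class both differ between the compared libraries and cannot be told apart.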

How the results depend on the processing

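Groups of 2 libraries limit every marrow comparison, and the shallow libraries limit lymph node. Barcodes with 500 or more genes turned the homo minus WT share to -0.671 points in CD8 T and -3.35 in CD4 T. Leaving out single libraries gave -1.13 to 2.32 and -1.50 to 1.62 points.

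Members called in GMP Y665F against WT were 0 with the planned test, and 2 with DESeq2, 1 with upper-quartile scaling, 11 with the length term and 0 to 3 without single libraries. In GMP Y665F against Y665H the counts were 3, 1, 14 and 0 to 7, and 1 with TMM factors computed without members. Upper-quartile scaling called 3.79% and 13.3% of all genes in these comparisons and the length term 5.94% and 9.79%, and TMM without members 12.5% in the second. In erythroid Y665F against WT (3 called) they were 8, 5, 19 and 2 to 15, and 5 without the top 5% of barcodes, beside 25.3% of all genes with upper-quartile scaling, 15.0% with the length term and 25.8% without the top 5%. In erythroid Y665F against Y665H (6 called) they were 11 with DESeq2, 28 with the length term (18.6% of all genes) and 2 to 20 without single libraries, with 20 and 15 in the erythroid comparisons from leaving out Y665F replicate 1 and 2 against Y665H from leaving out Y665H replicate 2. GMP Y665H against WT ranged from 0 to 11, LN CD8 T and CD4 T homo against WT from 0 to 1, and LN CD8 T het against WT gave 1 (Rps18) without both shallow libraries, beside 1.44% of all genes. Members both called and 0.5 or more from the median numbered 2 with DESeq2, 8 with the length term and 0 to 3 without single libraries (GMP Y665F against WT), 3, 11 and 0 to 7 (against Y665H), 8, 5 and 2 to 14 (erythroid against WT), 11, 10 and 2 to 15 (erythroid against Y665H), 0 to 5 (GMP Y665H against WT) and 0 to 1 (LN CD4 T homo against WT). DESeq2 called Rpl13 alone (1) in LN CD8 T. The cause of these shifts was not tested.

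With the replicate number as a block, called members numbered 1 in GMP Y665F against WT (25 with the length term as well), 2 against Y665H (30), 3 in erythroid Y665F against WT (32) and 5 against Y665H (34), beside 8.95%, 19.4%, 32.5% and 36.9% of all genes, or 9.03%, 13.3%, 23.98% and 27.1% with the length term as well. Counts of members both called and apart from the median were 1 and 2 in GMP. No other count moved by over 1.5 times under the block. No label says that the numbers pair the libraries, and they were not used as a pairing. Over all genes, deviations of same-numbered libraries in the GMP gate correlated at -0.13 (WT and Y665F), 0.28 (WT and Y665H) and 0.20 (Y665H and Y665F). In the same order they were 0.07, 0.33 and 0.29 in the erythroid gate, and they were -0.11 to 0.05 in LN CD8 T. Over the members alone the correlations were 0.08, 0.71 and 0.46 in the GMP gate and 0.12, 0.67 and 0.44 in the erythroid gate. In LN CD8 T those of the members ran from -0.93 to 0.85. BM replicate 1 libraries had Xist at 244 to 895 CPM and replicate 2 at most 0.586, so in BM the block also separates libraries with and without Xist.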
